A study of Mus musculus with 9 samples.

Results

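The genes described here encode enzymes of the lysosome, the proteins that carry and activate lipids for them, proteins of the lysosomal membrane, and the transcription factor Tfeb. The list held 45 gene symbols. The platform annotation named 44 of them on a probe set of their own, out of 18193 genes so named, and all 44 passed the filter on dim genes, which kept 12347 genes. Cd63 was not analysed here. Each gene was read from 1 probe set, the brightest of those assigned to its symbol alone. The 44 genes had 99 probe sets in all, and 29 of them had more than 1. By the brightness of their probe sets, which is no measure of abundance between genes, 30 of the 44 lay above the median of the genes tested.

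Lysosomes are acidic compartments in which proteins, glycans, lipids and nucleic acids are broken down by hydrolases, most of which work best at low pH. The hydrolases are made in the endoplasmic reticulum, tagged with mannose 6-phosphate in the Golgi and sorted to lysosomes, and many are also kept in the granules of myeloid cells. Tfeb and its relatives of the MiT/TFE family bind an E-box sequence called the CLEAR element in the promoters of many lysosomal genes.

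RNA was measured on 9 Affymetrix arrays of granulocyte-macrophage progenitors (GMPs), bone marrow cells that give rise to neutrophils and monocytes. The study deleted Dicer1, which encodes the enzyme that cuts microRNA precursors, in cells that have expressed Cebpa-Cre, and asked how its loss changed myeloid cells. Fetal liver cells of donor embryos at day 13.5 carrying Cebpa-Cre, the R26-LSL-Eyfp reporter and floxed Dicer1 were transplanted into C57BL/6 recipients. The recipients were 6 to 8 weeks old, were irradiated with 8.5 Gy, and were analysed 6 to 10 weeks later. EYFP-positive GMPs were sorted from their marrow, so all 3 groups had expressed Cre. The groups, with 3 arrays each, are labelled Dicer wt, Dicer het and Dicer null, and are called wild type, heterozygous and null here. All 9 samples carry the same genetic background text, so the labels do not say which Dicer1 alleles the wild-type donors had. Cebpa-Cre acts from an early stage of the myeloid lineage, and 1 fetal liver typically supplied more than 1 recipient. Nothing says that the arrays of a group came from separate donors, so p-values measure the spread between these arrays, which may be partly technical.

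The values were MAS5 signals, a linear intensity scaled by the authors so that the 2% trimmed mean was 100 on every array. Median signals ran from 12.4 to 16.1. The brighter Dicer1 probe set read 232 ± 11.1 on wild-type arrays, 185 ± 16.1 on heterozygous arrays and 105 ± 9.46 on null arrays (SD, n = 3). The dimmer one read 126 ± 8.77, 72.1 ± 6.06 and 51.4 ± 4.98 in that order. On the brighter one the heterozygous difference from wild type was not called (-0.31, limma adjusted p = 0.217). With the mean over the probe sets it was called (adjusted p = 0.015). Where the probe sets lie relative to the deleted part is not given in the sources used here. Wild-type array 2 stood apart from the other 8: its Xist signal was 2610 against 16.4 to 30.2, and its Eif2s3y signal was 1.13 against 622 to 859. This is a female pattern, and that of the other 8 arrays a male one, so only the wild-type group mixed both. The sample descriptions all say female, possibly of the recipients. Gla, Lamp2 and Ids are on chromosome X, and the part of sex in the results was not tested. Summed signals of 8 GMP markers, most of it Mpo, Ctsg and Prtn3, overlapped between the groups. They were 22694 to 25327 in wild type, 22827 to 27072 in heterozygous and 23422 to 25021 in null arrays. Of the 8, Fcgr3 alone was called in null against wild type, and was higher (0.37, limma adjusted p = 0.00959). Null and wild-type values also did not overlap for Kit (0.20), Ctsg (0.11) and Cd34 (-0.15), which were not called. Macrophages are rich in lysosomes, and of 10 macrophage markers on the array 5 were tested and 0 were called by limma in null against wild type, with 2 at an unadjusted p under 0.05. None of the 5 was called in the other comparisons either. All heterozygous values lay above all wild-type values for 2 of the 5 and below them for 1 (median difference 0.48). Over all genes these shares were 8.48% and 9.78%. All null values lay below all heterozygous values for 3 of the 5 (median -0.36), against 18% of all genes. Sums of the macrophage markers were 1654 to 2032, 2061 to 2171 and 1810 to 2377, most of it Csf1r (1522 to 2220), which GMPs also express. C1qa, C1qc, Marco, Siglec1 and Spic were below the filter, with C1qa at most 9.65 and Marco at most 3.09 on any array, while Adgre1 reached 155, Cd163 37.4 and Mrc1 33.1. Monocyte markers summed to 6172 on wild-type array 2 and to between 7690 and 9140 on the other 8 arrays. Eosinophil markers summed to 406 to 610 on wild-type arrays, 576 to 750 on heterozygous arrays and 664 to 1003 on null arrays, and 3 of 3 tested rose in null against wild type. Dendritic cell markers ran from 276 to 424, 305 to 422 and 151 to 193, and 2 of 7 fell. B-cell marker sums were 1148 to 1385, 1042 to 1150 and 517 to 598, most of it Ighm. Ighm fell in null against wild type (-1.42), while Cd79b, the only other B-cell marker tested, was not called (-0.15). Sums of basophil or mast cell markers were 4430 to 6644, 3964 to 4648 and 5164 to 7263. Of 6 tested, 3 were higher in null against heterozygous, and 0 rose against wild type. Fcer1a fell against wild type in null (-2.25) and heterozygous arrays (-3.11). The sums of maturing neutrophil markers overlapped between the groups, but Ltf (-2.09) and Ngp (-2.12) fell in null against wild type, and 3 of 8 fell in heterozygous against wild type. Erythroid markers summed to 1085 on wild-type array 2 against 138 to 431 on the other 8. The part of these cell types in the results below was not tested.

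The CLEAR element is built on the E-box CACGTG, and its palindromic form is TCACGTGA. Both were searched on both strands, which are identical for a palindrome, in RefSeq promoters of mouse build GRCm38.p6 that run from 250 bases before to 50 after each gene's start. Promoters were held for 40 of the 44 genes. CACGTG stood in 13 of the 40 (32.5%), against 1156 of 10007 tested genes with a promoter (11.6%). The 8-base form, which contains the 6-base one, stood in 5 of the 40 (12.5%), against 213 of 10007 (2.13%). The windows of those 5 genes are shown because they hold the palindromic form of the element. The 8-base form is in capitals, with at least 16 bases on either side of it.
Cln3, chr7:126583335-126583374, minus strand, 122 bases before the start: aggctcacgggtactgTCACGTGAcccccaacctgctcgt
Ctsa, chr2:164833744-164833800, plus strand, 13 bases before and again at base 5 after the start: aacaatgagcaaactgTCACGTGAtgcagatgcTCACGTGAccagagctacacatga
Ctsd, chr7:142387903-142387942, minus strand, 99 bases before the start: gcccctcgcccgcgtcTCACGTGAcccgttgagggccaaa
Gla, chrX:134601177-134601249, minus strand, 228 and 195 bases before the start: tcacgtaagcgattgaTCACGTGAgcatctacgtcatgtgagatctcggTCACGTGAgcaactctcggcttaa
Mcoln1, chr8:3500457-3500496, plus strand, 46 bases before the start: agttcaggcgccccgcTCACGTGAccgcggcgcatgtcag
A match of letters is no evidence that a factor binds there. The 5 genes went different ways in the arrays: against wild type, Ctsa and Ctsd rose in null cells, Gla fell, and Cln3 and Mcoln1 were not called. Of the 13 genes with CACGTG 3 rose and 1 fell, and of the 27 without it 8 rose and 3 fell, by the calls defined below. Over all genes tested 7.6% were called higher and 8.09% lower in this comparison. The part of the motif in these counts was not tested.

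In null against wild-type GMPs, 12 of the 44 lysosomal genes rose and 4 fell. The risers were spread over all 7 roles: the proteases Ctsd, Tpp1, Ctsl and Ctsa, the glycosidases Manba and Man2b1, the sulfatase Arsb, the lipid enzymes Asah1 and Ppt1, the phosphatase Acp5, the membrane protein Scarb2, and Grn. The fallers were Galc, Gla, Ctss and Cd68. The rises were modest, from 0.30 to 0.67 on the scale of log2(signal + 12), while Galc fell by 2.04. A gene counts as called, and is said to have risen or fallen, where limma's adjusted p is under 0.05 over the 12347 genes tested. Over all genes tested 7.6% were called higher and 8.09% lower in this comparison, so the 12 risers, 27.3% of the 44, stood against a background of 7.6%, and the 4 fallers, 9.09%, against 8.09%. The median difference of the 44 genes was 0.11, against -0.04 over all genes. With only the brighter genes tested, at or above the 60th percentile of probe sets, 13 of 41 lysosomal genes were called higher and 4 lower, against 10.7% and 11.9% of 9249 genes. In bulk RNA of sorted cells, fewer cells of a type and less RNA per cell cannot be told apart.

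**Figure D1:**
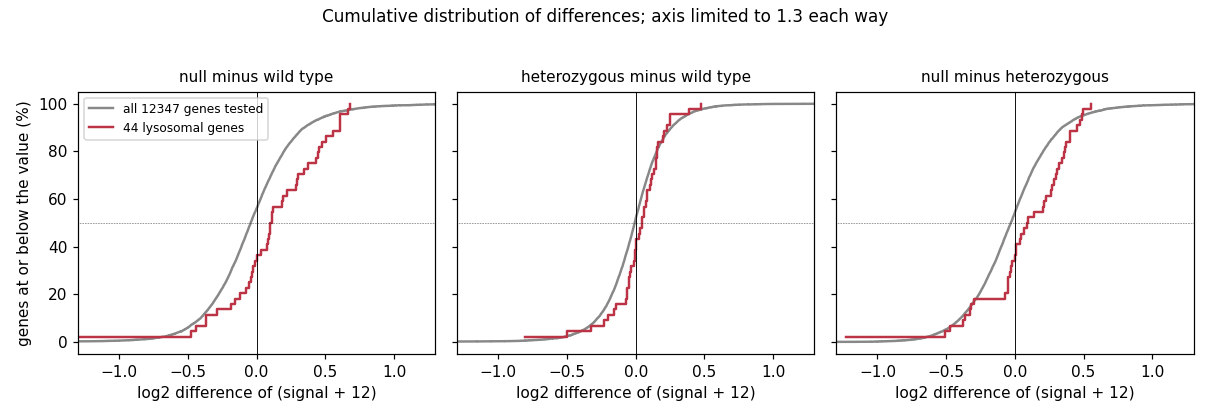
Cumulative share of genes (%) against the log2 difference of (signal + 12), for the 44 lysosomal genes (red) and all 12347 genes tested (grey), in null minus wild type, heterozygous minus wild type and null minus heterozygous. The red curve lies to the right of the grey one in both panels with null arrays, with medians of 0.11 against -0.04 and 0.09 against -0.03, and close to it in the heterozygous minus wild-type panel (0.05 against -0.01). Differences beyond 1.3 either way are off the axis.

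The shift was visible array by array. Relative to the wild-type mean of each gene, the median of the 44 genes was 0.19, 0.13 and 0.07 on the 3 null arrays. It was 0.03, 0.04 and 0.08 on the heterozygous arrays and 0.02, -0.05 and 0.01 on the wild-type arrays. The lowest null array therefore lay within the range of the heterozygous ones. Over all genes tested the same medians were -0.03, -0.01 and -0.07 on the null arrays. All 3 null values lay above all 3 wild-type values for 18 of the 44 genes, against 14.1% of all genes tested, and below them for 4, against 19%. Wild-type array 2, the one with a different Xist signal, was the lowest of its group for 20 of the 44 genes (45.5%) and for 32.4% of all genes. Without that array 10 of the 44 genes were called higher and 3 lower, with a median of 0.09.

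**Figure D2:**
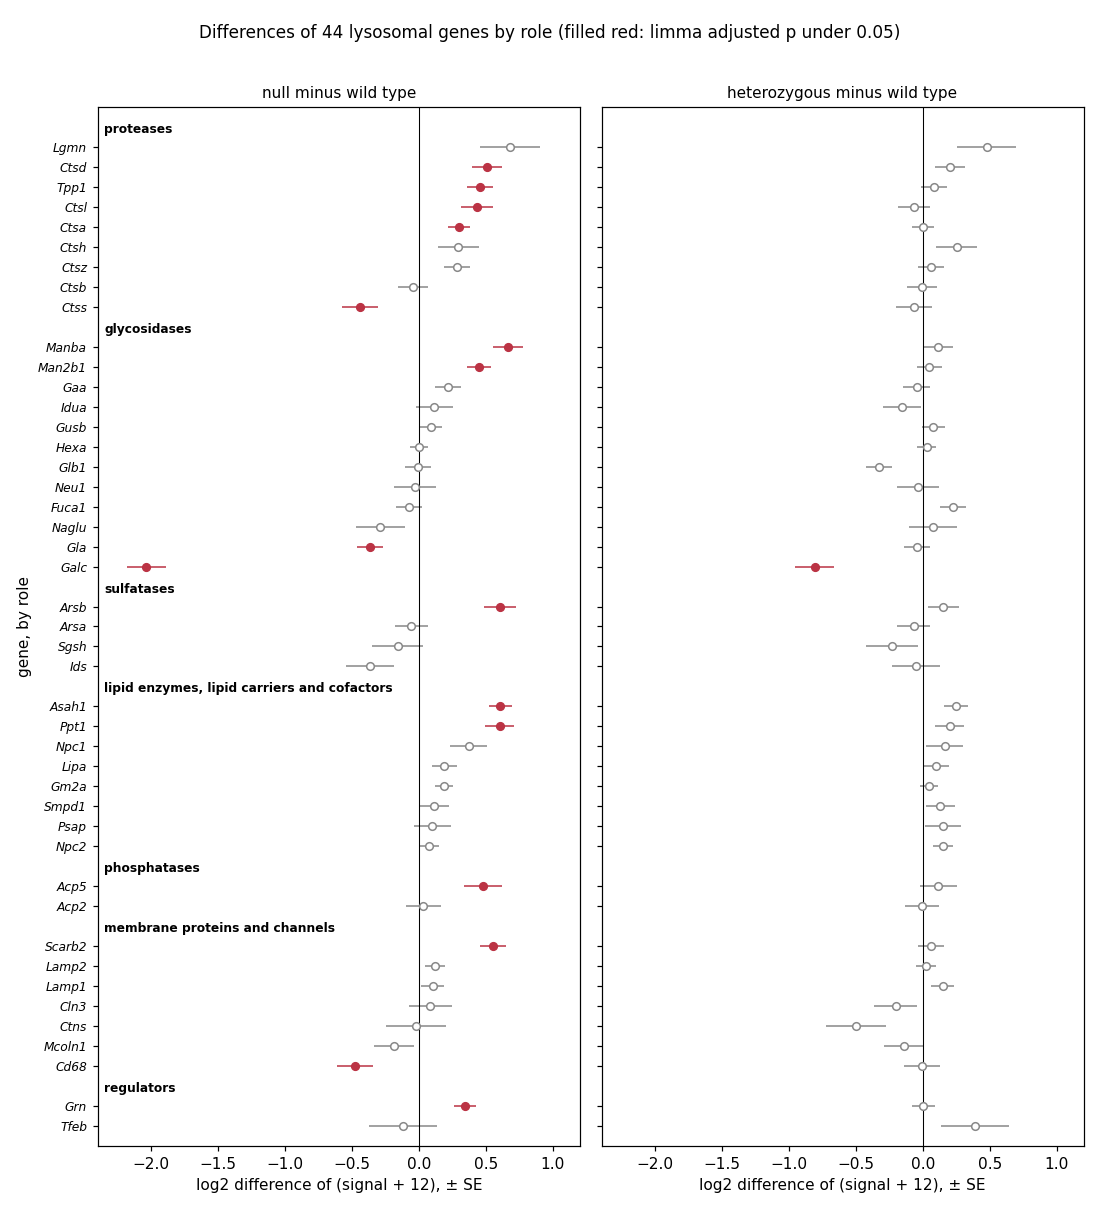
Log2 difference of (signal + 12), with its SE, for each of the 44 lysosomal genes ordered by role, in null minus wild type (left) and heterozygous minus wild type (right); filled red points have a limma adjusted p under 0.05. Of the filled points on the left, 12 lie to the right of 0 and 4 to the left, and Galc, at -2.04, is the farthest from 0. On the right only Galc, at -0.81, is filled.

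Among the 9 proteases 4 rose and 1 fell, and their median difference was 0.30. Ctsd is cathepsin D, the main aspartic protease of lysosomes. It read 181, 189.9 and 214 on the wild-type arrays, 239.5, 205 and 233 on the heterozygous arrays and 307, 244 and 297 on the null arrays. All null values lay above all others, and the difference from wild type was 0.51 (SE 0.11, limma adjusted p = 0.00705). Tpp1, tripeptidyl peptidase 1, whose loss causes a childhood neuronal ceroid lipofuscinosis, read 396, 363 and 340.4 on wild-type arrays, 362, 378 and 425 on heterozygous arrays and 497, 553 and 470.2 on null arrays. The null values again lay above the rest, and the difference was 0.45 (SE 0.10, adjusted p = 0.00575). A second Tpp1 probe set was also called higher, by 0.58.

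Ctsl, the cysteine protease cathepsin L, gave 309, 304 and 239 in wild-type arrays, 288, 248.9 and 272 in heterozygous arrays and 329, 413 and 418.5 in null arrays. Null array 1 exceeded the highest wild-type array by little, and the difference was 0.43 (SE 0.12, adjusted p = 0.026). Ctsa, cathepsin A, which also protects beta-galactosidase and neuraminidase in a complex, gave 422, 399 and 429 on wild-type arrays, 408, 408 and 436 on heterozygous arrays and 547, 495 and 505 on null arrays. The wild-type and heterozygous arrays were alike, and the null arrays were higher by 0.30 than wild type (SE 0.08, adjusted p = 0.0232). Both calls rested on single arrays. Ctsl lost its call without null array 2 (adjusted p = 0.0836), null array 3 (0.103) or wild-type array 3 (0.113). Ctsa lost it without null array 1 (0.0891), null array 3 (0.053) or wild-type array 2 (0.0755). Another, dimmer Ctsa probe set differed by -0.18, the opposite sign, and was not called.

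Ctss went the other way. It encodes cathepsin S, a cysteine protease of antigen-presenting cells that trims the invariant chain of MHC class II. It read 1441, 1019 and 1384 on the wild-type arrays, 1156, 1099 and 1392 on the heterozygous arrays and 1014, 1006 and 786 on the null arrays. The null arrays were the lowest, though wild-type array 2 exceeded 2 of them by little, and the difference was -0.44 (SE 0.14, adjusted p = 0.0395). The call was lost without null array 3 (0.164), wild-type array 1 (0.145), wild-type array 3 (0.133), heterozygous array 1 (0.0514) or heterozygous array 2 (0.0506), and in the fit of null and wild-type arrays alone (0.0591). The MHC class II genes H2-Aa and H2-Eb1, read here as dendritic cell markers, differed by -1.37 and -0.92 in null against wild type, and the part of that in the Ctss result was not tested.

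The remaining proteases Ctsb, Ctsh, Ctsz and Lgmn were not called. Ctsz, cathepsin Z, missed the threshold on its brightest probe set (0.29, adjusted p = 0.0599), while its other 2 probe sets were called higher at 0.33 and 0.41 (adjusted p = 0.0219 and 0.0284). Without wild-type array 1 the brightest one was called as well (adjusted p = 0.0172). Lgmn, the asparaginyl protease legumain, was dim: it read 5.16, 10.2 and 1.54 on wild-type arrays, 11.7, 12.3 and 12.2 on heterozygous arrays and 14.5, 15.8 and 16.8 on null arrays. The groups did not overlap, yet the difference of 0.68 had an SE of 0.22 and an adjusted p of 0.0513, which was 0.0285 without wild-type array 2. For a gene this dim the size depends on the constant added: it was 1.57 with 1 and 0.35 with 32 in place of 12. Lgmn was called with quantile (adjusted p = 0.0337) or cyclic loess normalization (0.0325), without the intensity trend (0.0274) and with array weights (0.0411). Ctsb, cathepsin B, another cysteine protease, showed no detectable difference (-0.04, SE 0.11).

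Glycosidases, which strip sugars from glycoproteins and glycolipids, were split: 2 of 12 rose and 2 fell, and their median was -0.01. Galc had the largest difference of the 44 genes in each of the 3 comparisons. It encodes galactosylceramidase, which breaks down the myelin lipid galactosylceramide and is deficient in Krabbe disease. Its signal was 83.3, 87.8 and 99.5 on the wild-type arrays, 45.4, 43.3 and 50.3 on the heterozygous arrays and 10.6, 14.2 and 13.8 on the null arrays. The 3 groups formed separate steps, with means of 90.2 ± 8.38, 46.3 ± 3.57 and 12.9 ± 1.96 (SD, n = 3). The null arrays differed from wild type by -2.04 (SE 0.14, adjusted p = 1.02e-06), and the call held without each of the 9 arrays. Because 12 is added to each signal, this understates the change of a gene this dim. The other 2 Galc probe sets were not tested, since their mean over the 9 arrays was below the filter of 8.49. Their group means were 9.48, 6.27 and 9.21 and 2.92, 5.04 and 7.26 on wild-type, heterozygous and null arrays in that order, so the steps rest on 1 probe set. Galc, like Lgmn and Npc2, lies on chromosome 12, and its distance from Dicer1 was not examined here. The part of sequence linked to the floxed allele in the Galc steps, or in the Lgmn values given above, was not tested. The Galc promoter of 300 bases held 0 copies of CACGTG.

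Manba and Man2b1 are the beta- and alpha-mannosidases that take mannose off N-glycans. Manba read 225, 216 and 245 on wild-type arrays, 227, 235 and 285 on heterozygous arrays and 341, 349 and 423 on null arrays. Its null values lay above all others, and its difference of 0.67 was the largest rise called among the 44 genes (SE 0.11, adjusted p = 0.00128). Man2b1 read 817, 659 and 779 on wild-type arrays, 737, 807 and 783 on heterozygous arrays and 1099, 980.02 and 1002 on null arrays. It was higher by 0.45 on its bright probe set (SE 0.09, adjusted p = 0.00441). Its other probe set, with group means of 27.9, 33.6 and 22.0 on wild-type, heterozygous and null arrays, differed by -0.42, the opposite sign, and was not called.

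Gla, the X-linked alpha-galactosidase A that is deficient in Fabry disease, fell. It read 215, 245 and 227 on wild-type arrays, 223, 233 and 211 on heterozygous arrays and 166, 192 and 167 on null arrays. All null values lay below all others, and the difference from wild type was -0.37 (SE 0.10, adjusted p = 0.0226). The call was lost without null array 1 (0.0755), null array 3 (0.0836), wild-type array 2 (0.0809) or wild-type array 3 (0.0567). A second Gla probe set differed by 0.27, the opposite sign, and was not called. The other 8 glycosidases were not called and lay between -0.29 (Naglu) and 0.22 (Gaa). Hexa, the alpha chain of beta-hexosaminidase and the brightest of them, gave 1829.5, 1870.4 and 1806 on wild-type arrays, 1883, 1926 and 1812 on heterozygous arrays and 1971, 1801 and 1738 on null arrays, so that null and wild type differed by less than their spread (SE 0.07, adjusted p = 0.996).

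Of the 4 sulfatases Arsb alone was called. It encodes arylsulfatase B, which acts on dermatan and chondroitin sulfate. Its values were 900.5, 756 and 1028 on wild-type, 928, 955 and 1091 on heterozygous and 1529, 1176 and 1385 on null arrays. The null values lay above the rest, with a difference of 0.60 (SE 0.12, adjusted p = 0.00337) that was called without each array in turn. The other 2 Arsb probe sets differed by -0.22 and -0.31 and were not called. Ids, Sgsh and Arsa, which act on heparan sulfate or sulfatide, were not called (-0.37, -0.16 and -0.06, adjusted p = 0.191, 0.643 and 0.808). The SE of the Ids difference was 0.18, its null and wild-type values overlapped, and its other 2 tested probe sets were also lower without a call (-0.55 and -0.40).

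All 8 genes for lipid breakdown and transport had positive differences, with a median of 0.19, and 2 of them were called. Over all genes tested 5426 of 12347 differences were positive. The 8 genes were also all positive in heterozygous against wild type (median 0.15), while 5 of them were positive in null against heterozygous. Asah1 encodes acid ceramidase, which splits ceramide into sphingosine and a fatty acid. Its signals were 1482, 1183 and 1343 on wild-type arrays, 1436, 1665 and 1649 on heterozygous arrays and 2075, 2032 and 1995 on null arrays. The null values were far above the wild-type ones, at 2034 ± 40.1 against 1336 ± 149 (SD, n = 3), and the heterozygous values lay between (1583 ± 128). The rise over wild type was 0.61 (SE 0.09, adjusted p = 0.000451). Ppt1, the thioesterase that removes palmitate from proteins, read 415, 328 and 365 on wild-type arrays, 395, 416 and 466 on heterozygous arrays and 512, 554 and 635 on null arrays. It was higher by 0.60 (SE 0.11, adjusted p = 0.00202), and a second of its probe sets by 0.53.

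The other 6 lipid genes were not called. They were the cholesterol carriers Npc1 and Npc2, the acid lipase Lipa, the sphingomyelinase Smpd1, and the activator proteins Gm2a and Psap, with differences from 0.08 (Npc2) to 0.37 (Npc1). Npc2, the brightest of the 44 genes, read 3060.2, 3074 and 2876 on wild-type arrays, 3574, 3315 and 3136 on heterozygous arrays and 3327, 3290.0 and 2902 on null arrays. The null and wild-type ranges overlapped, and the difference of 0.08 had an SE of 0.08 (adjusted p = 0.557). For Npc1, Lipa and Gm2a all null values lay above all wild-type values without a call (adjusted p = 0.0843, 0.209 and 0.0878).

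Of the acid phosphatases, Acp5, the tartrate-resistant enzyme of osteoclasts and macrophages, rose and Acp2 was not called (0.03, adjusted p = 0.902). Acp5 read 43.4, 32.4 and 41.8 on wild-type arrays, 43.7, 43.2 and 42.9 on heterozygous arrays and 59.4, 55.3 and 62.2 on null arrays. The null arrays were the highest, with a difference of 0.48 (SE 0.14, adjusted p = 0.0327). That call was lost without null array 1 (0.0807), null array 3 (0.11), wild-type array 2 (0.125) or wild-type array 3 (0.0553), and in the fit of null and wild-type arrays alone (0.056).

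The membrane proteins did not move as a group: 1 of 7 rose, 1 fell, and the median was 0.08. Scarb2, also called LIMP-2, carries glucocerebrosidase to lysosomes. It read 483, 384 and 423 on wild-type arrays, 456, 406 and 484 on heterozygous arrays and 649.9, 619 and 634 on null arrays. The null values were tight and above all others, with a difference of 0.56 (SE 0.10, adjusted p = 0.00173), while its second probe set gave 0.15 (adjusted p = 0.347). Lamp1 and Lamp2, the most abundant glycoproteins of the lysosomal membrane, were not called (0.10 and 0.12, adjusted p = 0.474 and 0.33). Lamp1 read 1919, 1669 and 1836 on wild-type arrays, 1971, 2022 and 2007 on heterozygous arrays and 2169, 1772 and 1887 on null arrays. Lamp2 read 2204, 1907 and 2203 on wild-type arrays, 2100.3, 2158 and 2149 on heterozygous arrays and 2354, 2158 and 2329 on null arrays. In both genes wild-type array 2 was the lowest of the 9 and the null and wild-type ranges overlapped, while all heterozygous values of Lamp1 lay above its wild-type values. The other 3 Lamp2 probe sets differed from wild type by 0.33, 0.20 and 0.29 and were not called. Against heterozygous arrays 2 of them were called higher (0.37 and 0.43, adjusted p = 0.0406 and 0.0163).

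Cd68, a heavily glycosylated lysosomal protein used as a marker of macrophages and monocytes, fell. It read 61.4, 63.3 and 75.4 on wild-type arrays, 72.4, 61.9 and 64.4 on heterozygous arrays and 43.4, 41.9 and 47.8 on null arrays. The null arrays lay below the other 6, with a difference of -0.48 (SE 0.13, adjusted p = 0.0247). The call was lost without null array 1 (0.0646), null array 2 (0.0655) or wild-type array 3 (0.102), and with quantile (0.0668) or cyclic loess (0.0657) normalization. Of the macrophage markers, Csf1r, most of the sum, differed by 0.22 and Cd163 by -0.42 without overlap, both without a call. Of 7 monocyte markers, Ms4a6c (-0.40) and Klf4 (-0.66) fell as well, while Ccr2 (0.75) and Cd14 (1.14) rose. Their part in the Cd68 result was not tested. The lysosomal calcium channel Mcoln1, the cystine exporter Ctns and the Batten disease protein Cln3 were not called (-0.19, -0.02 and 0.08).

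Grn and Tfeb stood for regulators. Grn encodes progranulin, a secreted protein that is cleaved in lysosomes and supports the activity of their enzymes. It read 1783, 1578 and 1803 on wild-type arrays, 1621, 1712 and 1844 on heterozygous arrays and 2388, 2158 and 2024 on null arrays. All null values lay above the rest, with a difference of 0.34 (SE 0.08, adjusted p = 0.0127). The call was lost without null array 1 (0.0599) or wild-type array 2 (0.0524), and the other 2 Grn probe sets were positive and not called. Tfeb was dim and scattered, at 12.3, 21.7 and 15.0 on wild-type arrays, 33.6, 22.3 and 19.7 on heterozygous arrays and 11.2, 25.9 and 7.62 on null arrays. Its ranges overlapped and its difference of -0.12 had an SE of 0.25 (adjusted p = 0.805), so a change of the size of the Grn difference was not detectable for it.

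**Figure D3:**
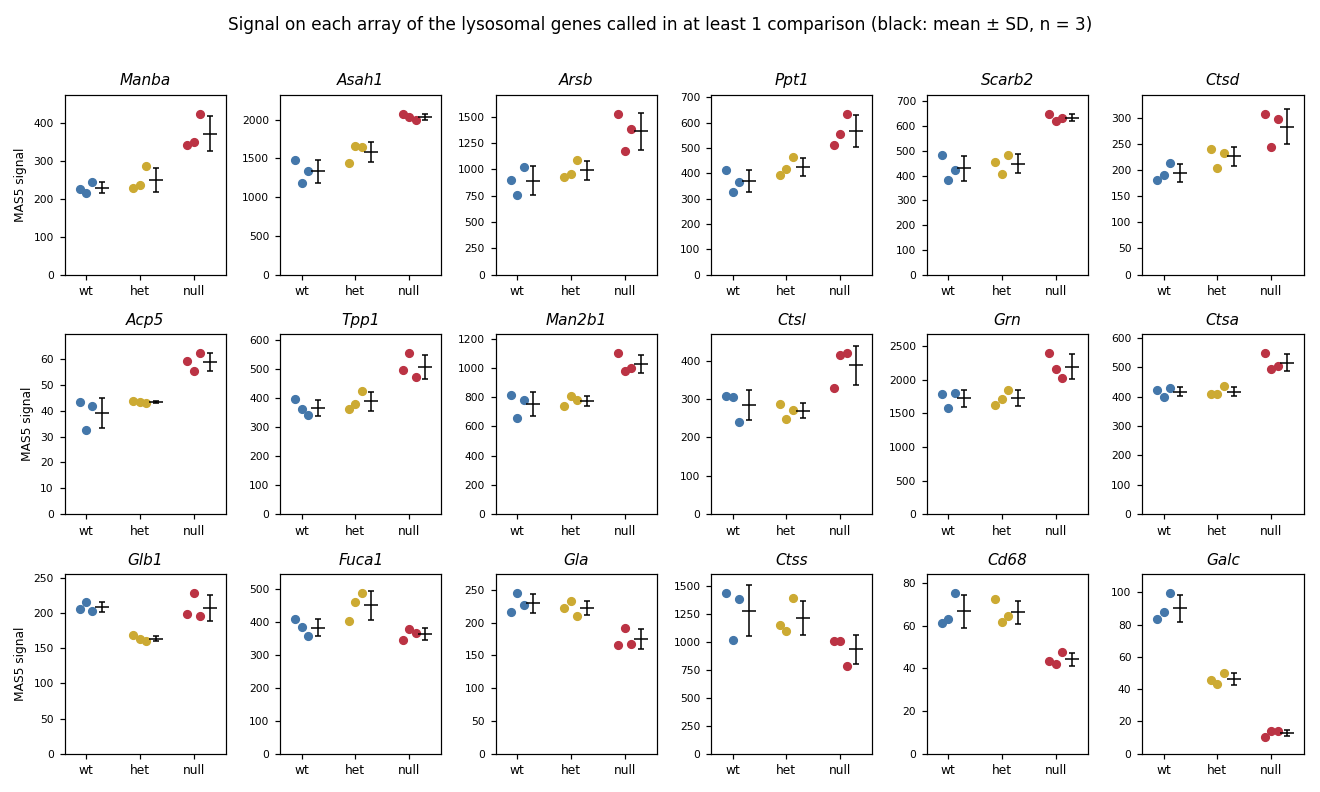
MAS5 signal on each array (points) of the 18 lysosomal genes called in at least 1 of the 3 comparisons, by genotype, with the mean and SD of the 3 arrays in black; each panel has its own axis from 0. In the first 12 panels the null arrays lie above the wild-type arrays. Galc, in the last panel, has a mean of 90.2 in wild-type arrays, 46.3 in heterozygous arrays and 12.9 in null arrays.

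Across the 16 called genes, 9 were called without each of the 9 arrays in turn: the risers Ctsd, Man2b1, Manba, Arsb, Asah1, Tpp1, Ppt1 and Scarb2, and Galc. The number of fallers was 2 without null array 1, 2 without null array 3 and 1 without wild-type array 3, against 4 with all arrays. Of the 12 risers 7 had other tested probe sets, 11 in all. Of these 7 had the same sign, 2 of them called, and 4 had the opposite sign, none of them called. Without the intensity trend, Ctsa, Ctsl, Grn and Ctss lost their calls (adjusted p = 0.0599, 0.0746, 0.068 and 0.119), and with no filter on dim genes Ctss, Cd68 and Acp5 did (0.0806, 0.058 and 0.079). With the mean over all probe sets of a gene, Ctsa, Ctsl, Grn, Ctss, Gla, Man2b1, Arsb and Ppt1 were not called (0.065 for Ctss to 0.979 for Man2b1). The ratio of 3' to 5' Gapdh signal, a sign of RNA integrity, was 6.56 to 7.44 on wild-type arrays, 6.00 to 6.33 on heterozygous arrays and 7.11 to 7.72 on null arrays. The null and wild-type ranges overlapped, while the heterozygous range lay below both. The same ratio for Actb did not set the heterozygous arrays apart, as its ranges overlapped between all groups. Its medians were 9.27 on wild-type arrays, 7.48 on heterozygous arrays and 7.66 on null arrays. Signal of the 3' 18S ribosomal control was 966 to 1104 on heterozygous arrays, against 495 to 698 on wild-type and 540 to 765 on null arrays. The part of these in the results, in the comparisons with heterozygous arrays above all, was not tested.

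Heterozygous GMPs differed from wild type in 1 of the 44 genes. Galc fell, from 90.2 to 46.3 in mean signal, with a difference of -0.81 (SE 0.14, limma adjusted p = 0.0095), and all 3 heterozygous values lay below all 3 wild-type values. The call was lost without heterozygous array 2 (0.0565) or wild-type array 3 (0.055), while the difference stayed between -0.86 and -0.74 over all left-out arrays. With the mean over its 3 probe sets, 2 of them dim, it was -0.28 and not called (0.52). None of the 44 genes rose. In this comparison 0.697% of all genes tested were called higher and 0.697% lower. Without regard to calls, all heterozygous values lay above all wild-type values for 3 of the 44 genes, against 8.48% of all genes, and below them for 2, against 9.78%. At an unadjusted p under 0.05 limma gave 6 of the 44 and 1594 of the 12347. The median of the 44 was 0.05, against -0.01 over all genes. Glb1, the beta-galactosidase of lysosomes, read 206, 216 and 203 in wild-type and 168, 162 and 160.2 in heterozygous arrays without overlap, and was not called (-0.33, SE 0.10, adjusted p = 0.135).

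The heterozygous mean lay between the other means for 11 of the 12 genes that rose in null against wild type, Ctsl being the exception, and for all 4 that fell. Of the 28 genes not called it lay between for 11, above both for 8 and below both for 9. The called genes were picked for a gap between null and wild-type arrays, which makes a mean between them more likely. These counts therefore do not measure a graded effect, and the same share over all called genes was not computed. The heterozygous difference from wild type was -0.81 for Galc and 0.25 for Asah1, which was not called (adjusted p = 0.238), and 0.00 for Ctsa and Grn.

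Null against heterozygous GMPs used the same null arrays as the comparison with wild type, so the calls of both are not independent. Here 11 of the 44 genes were called higher and 4 lower, against 6.84% and 7.49% of all genes tested, and their median was 0.09. All null values lay above all heterozygous values for 18 of the 44, against 14.7% of all genes, and below them for 5, against 18%. Called against both wild type and heterozygous were 10 of the 12 and 11 risers and 3 of the 4 and 4 fallers. The differences from heterozygous arrays were 0.55 for Manba, 0.50 for Ctsl, 0.49 for Scarb2, 0.45 for Arsb, 0.40 for Ppt1 and Man2b1, 0.37 for Tpp1, 0.36 for Asah1, 0.34 for Grn and 0.30 for Ctsa. The fallers were Galc (-1.23, SE 0.14, adjusted p = 9.98e-05), Cd68 (-0.47), Gla (-0.32) and Fuca1 (-0.30). Ctsd, Acp5 and Ctss, called against wild type, missed the threshold (0.31, 0.36 and -0.38, adjusted p = 0.0839, 0.105 and 0.0796), though their null and heterozygous values did not overlap.

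Glb1 and Fuca1 were called in this comparison alone. Glb1 read 199, 228 and 195 in null arrays, above the 160.2 to 168 of the heterozygous arrays (0.32, SE 0.10, adjusted p = 0.041). Fuca1, the lysosomal fucosidase, read 408, 384 and 355 on wild-type arrays, 402, 460.1 and 487 on heterozygous arrays and 343, 379 and 365 on null arrays (-0.30, SE 0.09, adjusted p = 0.0491). The heterozygous arrays stood apart from both other groups for Glb1, while for Fuca1 they overlapped with wild type. The null arrays overlapped with wild type for both genes and differed from it by -0.01 and -0.07. Each of these 2 calls was lost without any of 8 of the 9 arrays, with adjusted p of 0.0511 to 0.14 for Glb1 and 0.052 to 0.168 for Fuca1.

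In this comparison Man2b1, Manba, Scarb2 and Galc were called without each of the 9 arrays. The other 8 risers and 3 fallers each lost their call without at least 1 array, with adjusted p of at most 0.14 and 0.168. The number called higher fell from 11 to 7 without null array 1, to 6 without null array 3, and to 4 without heterozygous array 1 or heterozygous array 2. The number called lower was 1 without null array 1, heterozygous array 2 or heterozygous array 3, and 2 without null array 3, heterozygous array 1 or wild-type array 3. A second Gla probe set was called in the opposite direction (1.07, adjusted p = 0.00526), so the direction of Gla against heterozygous cells depends on the probe set. With the mean over probe sets Galc differed from heterozygous by -0.29 and was not called (0.254).

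The wider pathway was read from 6 lists of other lysosomal genes, 127 in all, of which 109 were tested. In null against wild type 14 rose and 8 fell, 12.8% and 7.34%, against the 7.6% and 8.09% of all genes, and the median was 0.03. Among 21 other hydrolases and their activating enzyme 4 rose and 0 fell, with a median of 0.11. They were Ctsc, cathepsin C, which activates the granule serine proteases (0.74, adjusted p = 0.00125), Sumf1, the enzyme that activates all sulfatases (0.55, adjusted p = 0.00498), the amidase Naaa (0.59, adjusted p = 0.0291) and Aga, which cuts sugar chains off asparagine, (0.54, adjusted p = 0.0395). Naaa lost its call without null array 1 (0.113), null array 2 (0.0592) or wild-type array 2 (0.109). Aga lost it without null array 1 (0.157), null array 3 (0.0931), heterozygous array 2 (0.0565), wild-type array 1 (0.0968) or wild-type array 2 (0.134).

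Ctsc differed in heterozygous cells as well. It read 1558, 1234 and 1471 on wild-type arrays, 1995, 2072 and 2374 on heterozygous arrays and 2954, 2140.0 and 2100.3 on null arrays. Both deleted groups lay above wild type and overlapped each other, and the heterozygous difference was 0.59 (adjusted p = 0.0271). That call was lost without any 1 of the heterozygous arrays (0.0593, 0.0943 and 0.14) and without wild-type array 2 (0.0898) or 3 (0.059).

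Among 23 other membrane proteins and transporters 4 rose and 1 fell, with a median of 0.05. Cd164, a sialomucin of endosomes and lysosomes, rose by 0.41 (adjusted p = 0.00389), Laptm4b by 0.76 (adjusted p = 0.0076) and the proton-coupled amino acid transporter Slc36a1 by 0.58 (adjusted p = 0.00778). Abcd4, a transporter needed for lysosomal cobalamin export, differed by -0.64 (adjusted p = 0.029) and lost its call without null array 2 (0.103), wild-type array 1 (0.0795) or wild-type array 2 (0.082). Of 16 subunits of the V-ATPase, the pump that acidifies lysosomes, 3 rose by small amounts and 0 fell. They were the accessory subunit Atp6ap2 (0.30, adjusted p = 0.00476), Atp6v1d (0.35, adjusted p = 0.0114) and Atp6v1a (0.32, adjusted p = 0.0425), and the median of the 16 was -0.04. Atp6v1d lost its call without null array 3 (0.0509), and Atp6v1a without null array 1 (0.117), null array 3 (0.158), heterozygous array 2 (0.0635), wild-type array 2 (0.139) or wild-type array 3 (0.0883).

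Of 18 genes that sort hydrolases to lysosomes, Ap3m1, a subunit of the AP-3 adaptor, rose by 0.45 (adjusted p = 0.00967), and Ap1s2, of the AP-1 adaptor, differed by -0.45 (adjusted p = 0.00978). The mannose 6-phosphate receptors and the enzyme that makes their tag were not called. Of 12 genes for tethering and fusion, Vps39 rose (0.92, adjusted p = 8.1e-05), and Vps16 and Vps18 fell (-0.58 and -0.75, adjusted p = 0.00376 and 0.0225). All 3 are subunits of the HOPS complex, and Vps16 and Vps18 belong to its core. Vps18 lost its call without null array 2 (0.0708), null array 3 (0.0901) or wild-type array 2 (0.0989). Vps39 read 115, 133 and 123 on wild-type arrays, 276, 225 and 237 on heterozygous arrays and 265, 241 and 229.99 on null arrays, so that it was as high in heterozygous as in null cells (0.92 over wild type, adjusted p = 0.000265).

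In the list of MiT/TFE factors and nutrient sensing at the lysosome 1 of 19 genes rose and 4 fell, and the median was -0.07. Fnip1, a partner of folliculin, rose by 0.66 (adjusted p = 0.00247). Folliculin itself, Flcn, differed by -0.39 (adjusted p = 0.0174), Tfec, the MiT/TFE factor of myeloid cells, by -0.39 (adjusted p = 0.00788), and Lamtor5, a Ragulator subunit, by -0.27 (adjusted p = 0.0207). The fourth, Mitf, is named after its values were seen: it read 202, 246 and 196 on wild-type arrays, 196, 229 and 207 on heterozygous arrays and 167, 154 and 168 on null arrays, below all others, with a difference of -0.37 (adjusted p = 0.0357). Flcn lost its call without null array 1 (0.0678), null array 3 (0.0512), wild-type array 2 (0.0676) or wild-type array 3 (0.0503), and Lamtor5 without null array 1 (0.0847), null array 3 (0.053) or wild-type array 3 (0.0714). Mitf lost it without any 1 of the null arrays (0.0669, 0.1 and 0.0717) or wild-type array 2 (0.142). Tfe3, the family member most like Tfeb, was not called (-0.03).

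With the mean over all probe sets of a gene in place of the brightest, several of these genes moved and lost their calls against wild type: Cd164 (0.09, adjusted p = 0.624), Naaa (0.12, 0.61), Ap3m1 (0.17, 0.33), Ap1s2 (-0.18, 0.335) and Vps18 (-0.11, 0.704). Aga, Abcd4, Atp6v1d, Atp6v1a and Mitf also lost theirs (adjusted p = 0.0564, 0.0858, 0.0509, 0.1 and 0.13). In heterozygous against wild type so did Vps39 (0.51, 0.0842) and Ctsc (0.43, 0.166).

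**Figure D4:**
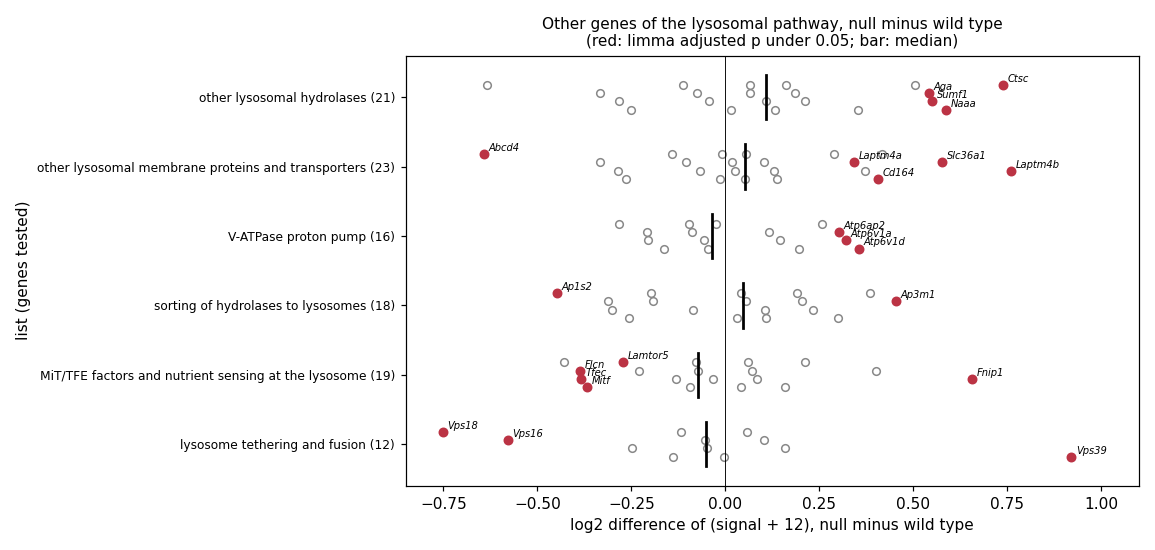
Log2 difference of (signal + 12), null minus wild type, of the other lysosomal genes in 6 lists, with the number tested beside each list's name; red points have a limma adjusted p under 0.05 and black bars are list medians. The 21 other hydrolases have 4 red points, all to the right of 0, and the 19 MiT/TFE and nutrient sensing genes have 1 to the right and 4 to the left.

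Against heterozygous cells 8 of the 109 genes rose and 7 fell in null cells, which is 7.34% and 6.42% against the 6.84% and 7.49% of all genes, so neither share stood clear of the background. Without each of the 9 arrays in turn 8 of these 15 stayed called. Those 8 were Cd164 (0.58), Slc36a1 (0.65), Fnip1 (0.57) and Atp6ap2 (0.34), which were higher, and Ap1s2 (-0.56), Lamtor4 (-0.72), Lamtor2 (-0.40) and Lamtor1 (-0.37), which were lower. The Lamtor genes encode subunits of the Ragulator, which holds the mTORC1 machinery on the lysosome. The other 7 called genes each lost their call without at least 1 array, with adjusted p of at most 0.192. They were Sumf1, Aga, Laptm4b and Ap3m1, which were higher, and Atp6v1f, Mitf and Vps16, which were lower. With the mean over all probe sets Cd164 (0.17), Ap1s2 (-0.30), Lamtor2 (-0.16), Aga, Ap3m1 and Mitf were not called.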

How the data were processed

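RNA of 9 sorted GMP samples was measured on Affymetrix arrays. The deposited values are linear MAS5 signal intensities, per the submitters' processing notes, 1 per probe set and array. The authors' scaling gives every array the same trimmed mean, which hides any change shared by most transcripts, and no detection calls were used here. Of 45101 probe sets, 34945 had 1 gene symbol in the platform annotation, and probe sets with several symbols named no gene. For each gene the probe set with the highest mean log2(signal + 12) was kept. Genes under the 40th percentile of probe sets, a signal of 8.49, were not tested. One model of the 9 arrays with 3 groups was fitted in limma 3.58.1 (R 4.3.3; lmFit, and eBayes with trend = TRUE), with 6 residual and 8.1 prior degrees of freedom, and Benjamini-Hochberg adjustment over 12347 genes. The fit was tested on simulated data. With 3 arrays against 3 the smallest p of an exact permutation test is 0.1. The lysosomal genes and all lists were chosen with earlier results of these data known. Values per array are given for genes called in any comparison, for the 5 brightest and for Tfeb. Of each pathway list at most 4 called genes per comparison are named, those with the smallest p. Ctsz, Lgmn, Ctsb, Mitf, Tfe3 and the other uncalled genes given with values were named after these were seen. The alternatives were other pseudocounts, filters, normalizations, probe set rules and variance settings, array weights, 2 groups only, a replicate block, and leaving out each array.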

Additional observations from a re-analysis of the deposited data

How the results depend on the processing

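Over 11 alternative settings and 9 left-out arrays, the number of lysosomal genes called higher in null against wild type stayed between 9 and 14, the left-out arrays giving 9 to 13. The number called lower, 4, was 1 to 4 with an array left out and 2 with no filter on dim genes or with the mean over all probe sets of a gene. The median difference, 0.11, was 0.09 to 0.14 with an array left out, 0.15 with cyclic loess and 0.021 with the mean over all probe sets, which weights dim probe sets equally. In heterozygous against wild type the number called higher was 0 throughout. The number called lower, 1, was 0 or 1 with an array left out and 0 with the mean over probe sets, and the median ran from 0.01 to 0.06 over left-out arrays. In null against heterozygous the number called higher, 11, was 4 to 11 with an array left out, 3 without the intensity trend and 7 with the mean over probe sets. The number called lower, 4, was 1 to 4 with an array left out, 1 with no filter or with the mean over probe sets, and 2 with quantile normalization, cyclic loess or no trend, and the median was 0.086 to 0.16 with an array left out.

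Signs turned only with the choice of probe set. In null against wild type other probe sets gave -0.18 for Ctsa, 0.27 for Gla, -0.42 for Man2b1, and -0.22 and -0.31 for Arsb. In null against heterozygous other probe sets gave 1.07 for Gla, -0.56 for Man2b1, 0.20 for Fuca1, and -0.36 and -0.10 for Arsb, and the mean over probe sets gave 0.26 for Gla, -0.081 for Man2b1 and -0.0027 for Arsb. With that mean, Galc in null cells differed by -0.57 from wild type and was still called, and lost its calls in null against heterozygous (-0.29) and in heterozygous against wild type (-0.28). The cause was not tested.

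The labels number the replicates 1 to 3 in each group. Deviations of same-numbered arrays correlated at -0.03 to 0.14, and those of differently numbered arrays at -0.15 to 0.09. The numbers were not taken as pairs, since the same-numbered values were not above 0.1 in every pair. Correlations this weak neither show nor exclude a pairing. With the replicate block 13 lysosomal genes were called higher and 4 lower in null against wild type, 0 and 1 in heterozygous against wild type, and 11 and 3 in null against heterozygous. Over all genes the calls became 2111, 201 and 1934, from 1937, 172 and 1770. The precision is limited by 3 arrays per group, and, with no detection calls used, signals near the filter such as those of Lgmn and Tfeb carry no statement of presence.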
